A study of Mus musculus with 2 samples.

Results

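The microRNA cluster of Mir17hg, also known as oncomir-1, is a group of 6 microRNA precursor genes, Mir17, Mir18, Mir19a, Mir20a, Mir19b-1 and Mir92-1, read from that 1 long noncoding host gene on mouse chromosome 14. The members were chosen by gene symbol: they are the 6 of the 1973 microRNA genes in the count tables that carry these names in GENCODE M21, and all 6 had counts in every library. The data are microRNA-seq, a sequencing of small RNAs after ligation of adapters, of the hindbrain of B6NCrl mice on the day of birth (postnatal day 0), in 1 group of 2 pups. Each library came from hindbrain tissue of a single pup, called pup 1 and pup 3 in the labels. No genotype, treatment or transgene is named in the labels, the sex of the pups was not recorded, and the RNA was selected for small sizes. With 1 group there is no condition to compare. The data address how many reads each member had in these libraries, how members of 1 transcript compare, and how far both pups resembled each other. Whether adapters joined all microRNAs equally well was not tested. Ratios of counts between members are thus not measured ratios of amounts in the tissue.

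The cluster is transcribed as 1 primary RNA. Drosha cuts the hairpins out of it, Dicer removes their loops, and 1 arm of each duplex, the guide, is loaded into an Argonaute protein, which it leads to messenger RNAs that pair with its seed (bases 2 to 8). Cluster members are known from dividing cells, where MYC and E2F factors activate the host gene and the microRNAs lower promoters of cell death such as Bcl2l11. In the developing nervous system they are known for keeping progenitors dividing. Each hairpin occurs once in the primary RNA, and the level of a mature microRNA also depends on how well its hairpin is processed and how long its guide lasts.

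The 6 guide sequences are shown because they define what each member can target and which reads can be assigned to it. They are written 5′ to 3′ from RefSeq (GRCm38.p6), which matched all 6 symbols, with the seed in capitals.
Mir17, miR-17-5p: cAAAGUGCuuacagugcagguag
Mir20a, miR-20a-5p: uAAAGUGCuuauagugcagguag
Mir18, miR-18a-5p: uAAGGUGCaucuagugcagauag
Mir19a, miR-19a-3p: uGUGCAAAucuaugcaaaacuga
Mir19b-1, miR-19b-3p: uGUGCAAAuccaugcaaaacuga
Mir92-1, miR-92a-3p: uAUUGCACuugucccggccug
The members fall into 4 seed groups. Mir17 and Mir20a share the seed AAAGUGC, and their guides differ at 2 positions counted from the 5′ end of miR-17-5p, C1U and C12U. Mir18 has the related seed AAGGUGC, and its guide differs from that of Mir20a by A4G, U9A, A11C and G20A. Mir19a and Mir19b-1 share GUGCAAA, and their guides differ at a single position, U11C. Mir92-1 alone carries AUUGCAC. The guide is the 5′ arm in Mir17, Mir20a and Mir18, and the 3′ arm in Mir19a, Mir19b-1 and Mir92-1. The tables count reads per precursor, so both arms are summed.

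For 2 members the guide is encoded at 2 loci. The miR-19b-3p sequence is also encoded by Mir19b-2, and the miR-92a-3p sequence by Mir92-2, both in the Mir106a-363 paralog cluster on the X chromosome. The precursors of both pairs are shown with the longest stretch that they have in common in capitals.
Mir19b-1: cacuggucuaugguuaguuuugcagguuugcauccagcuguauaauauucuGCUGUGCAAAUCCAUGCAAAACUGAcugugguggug
Mir19b-2: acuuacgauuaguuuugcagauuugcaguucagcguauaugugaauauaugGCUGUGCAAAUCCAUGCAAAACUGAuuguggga
Mir92-1: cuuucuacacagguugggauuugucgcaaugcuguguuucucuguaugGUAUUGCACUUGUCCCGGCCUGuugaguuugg
Mir92-2: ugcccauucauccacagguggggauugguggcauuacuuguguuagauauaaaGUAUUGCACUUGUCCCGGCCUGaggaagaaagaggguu
The shared stretch is 25 nt in the first pair and 22 nt in the second, and in each it covers the whole guide. A read that lies inside it maps to both loci and, by the layout of the tables, is not counted at either. By that layout the values of Mir19b-1 and Mir92-1 leave out such reads, those of the exact guide included. What is counted there comes from reads that reach past the stretch or lie elsewhere in the hairpin. These values can thus be undercounts by an amount the data here do not give. The other 4 members share no stretch of 20 nt with any other precursor that has a sequence in GENCODE M21 and does not overlap them. Rows without such a sequence and the rest of the genome were not compared. The longest match of these 4 members to a compared precursor is 17 nt, between Mir18 and Mir18b, and 13 nt for Mir19a.

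The same-strand counts of all microRNA genes came to 2459757 in pup 1 and 3012320 in pup 3, and reads that mapped to several loci made up 40.2% and 42.0% of all reads. Levels are given in CPM, counts per 1000000 same-strand gene counts of the library, and 3 counts, the most that a count of 0 allows, correspond to 1.22 CPM in pup 1 and 0.996 CPM in pup 3. A small RNA read covers a whole mature microRNA, so the level of 1 gene was compared with that of another without division by length. The identity of the tissue was checked on markers: of 12 neuronal and hindbrain microRNA genes with a row, 8 reached 10 CPM in both pups and none was without counts in both. Those below 10 CPM were neuronal Mir124a-1 (4.88 and 5.64 CPM in pups 1 and 3) and Mir124a-2 (1.63 and 2.99 CPM). Mir124a-3 (1.22 and 0.664 CPM) and Mir9-2 (1.22 and 1.66 CPM) were also below it, near the level of 3 counts. Whether the exclusion of reads with more than 1 matching locus lowered these values was not tested. The summed level of all 12 was 76116 CPM in pup 1 and 56438 CPM in pup 3. Hindbrain Mir10a (35716 and 23544 CPM) and Mir10b (20858 and 10196 CPM) were lower in pup 3. Of the others that reached 10 CPM, Mir137 (11588 and 13229 CPM) and Mir128-1 (5291 and 6622 CPM) were higher in pup 3. So were Mir128-2 and Mir218-1, while Mir9-3 and Mir218-2 were lower. The sample is bulk tissue in which markers of other tissues also had counts. Mir126a of endothelium had 34216 and 36931 CPM, Mir206 of striated muscle 98.4 and 125 CPM, and Mir122 of liver 41.9 and 45.5 CPM. Of 4 striated muscle genes with a row, the other 3, Mir1a-1, Mir133a-1 and Mir133a-2, had no count in either pup. In bulk tissue, fewer cells of a type cannot be told apart from less RNA per cell. The part of any cell type in the cluster's levels was not tested.

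The members lie on the plus strand between positions 115043671 and 115044506 of chromosome 14 (mm10), a span of 836 nt. All 6 are inside exon 2 of the only annotated transcript of Mir17hg, whose start is at 115042879. Their precursors are 80 to 107 nt long, the gaps between them are 35 to 96 nt, and their GC content is 43.7% to 47.5%. In the order of the transcript, Mir17 begins at 115043671, Mir18 at 115043851, Mir19a at 115044000, Mir20a at 115044157, Mir19b-1 at 115044305 and Mir92-1 at 115044427. No read was counted on the opposite strand of any member in either library.

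Mir17 was the most abundant member, with 28733 counts or 11681 CPM in pup 1 and 29419 counts or 9766 CPM in pup 3. Its mean was 10724 ± 1354 CPM (SD over the pups, n = 2, as after every ± below). Among reads not mapped to several loci, this made Mir17 the 21st most abundant of the 1973 genes. Mir20a, its partner in seed, had 12390 and 14154 counts, or 5037 and 4699 CPM, with a mean of 4868 ± 239 CPM. Both pups placed Mir20a below Mir17, and their ranges did not overlap.

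Mir18, which follows Mir17 in the transcript, had 6162 and 8875 counts, or 2505 and 2946 CPM in pups 1 and 3, with a mean of 2726 ± 312 CPM. Mir92-1, the last hairpin, had 2428 and 2891 counts, or 987 and 959.7 CPM, with a mean of 973 ± 19.3 CPM, over the reads that could be assigned to it. Its 2 values lay closer to each other, relative to their level, than those of the other 5 members.

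The miR-19 genes, whose microRNA is known as the main oncogenic component of the cluster in mouse lymphoma, were the lowest. Mir19a had 70 counts in pup 1 and 144 in pup 3, or 28.5 CPM (exact 95% Clopper-Pearson interval 22.2 to 36.0) and 47.8 CPM (40.3 to 56.3), so that the intervals of both pups did not overlap. Mir19b-1 had 21 and 22 counts, or 8.54 CPM (5.28 to 13.1) and 7.30 CPM (4.58 to 11.1), and these intervals overlapped. Mir19b-1 has a guide with 2 loci. Mir19a does not, and the cause of its low count was not tested.

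The order of levels was Mir17, Mir20a, Mir18, Mir92-1, Mir19a and Mir19b-1 in both pups, and no neighbouring members in this order overlapped. It did not follow the position in the transcript: the hairpins with the lowest counts, the third and the fifth, stand next to Mir20a on either side. The 3 members whose guide is the 5′ arm had the highest levels, from 2505 CPM upward, and the 3 whose guide is the 3′ arm had the lowest, up to 987 CPM. With 6 members, of which 2 can be undercounts, this is a description of these genes.

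**Figure D1:**
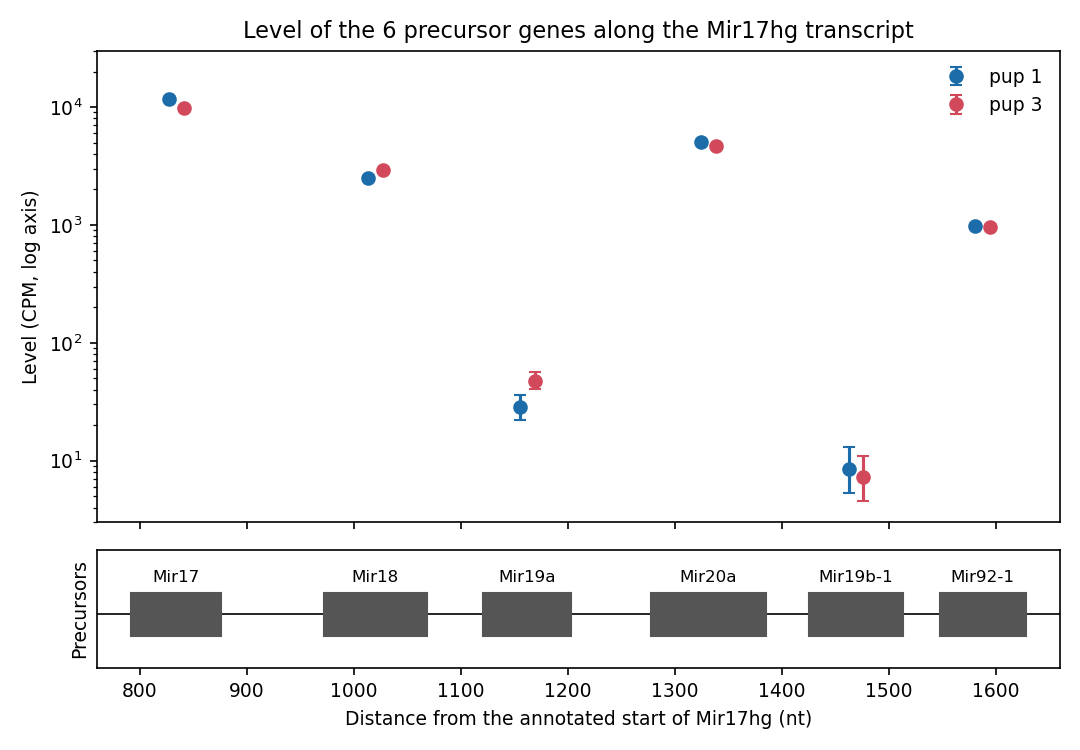
Level in CPM on a log axis of the 6 members in pup 1 (blue) and pup 3 (red), with exact 95% counting intervals, above a map of their precursors by distance in nt from the annotated start of Mir17hg. Mir17 sits near 10724 CPM and Mir19b-1 near 7.92 CPM, and the dips at Mir19a and Mir19b-1 lie on either side of Mir20a.

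Ratios between members do not depend on library size, since both counts come from 1 library. They are ratios of counted reads, and an unequal joining of adapters to the members was not tested. Mir17 exceeded Mir20a 2.32-fold in pup 1 (exact 95% counting interval 2.27 to 2.37) and 2.08-fold in pup 3 (2.04 to 2.12). The ratio of Mir18 to Mir20a was 0.497 (0.482 to 0.513) in pup 1 and 0.627 (0.611 to 0.644) in pup 3. Mir20a exceeded Mir92-1 by 5.10-fold and 4.90-fold, with intervals that overlapped (4.89 to 5.33 and 4.70 to 5.10), so this ratio did not differ between the pups beyond counting error. Mir17 exceeded Mir19a by 410-fold (325 to 527) in pup 1 and by 204-fold (173 to 242) in pup 3. The ratio of Mir19a to Mir19b-1, genes with 1 base between their guides, was 3.33 (2.02 to 5.72) and 6.55 (4.16 to 10.8). The counts of Mir19b-1 and Mir92-1 leave out reads that map to both loci of their guides. Ratios of other members over these genes can thus be overestimates.

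As percent of the cluster's own counts, Mir17 made up 57.7% in pup 1 and 53.0% in pup 3, Mir20a 24.9% and 25.5%, and Mir18 12.4% and 16.0%. Mir92-1 made up 4.88% and 5.21%, Mir19a 0.141% and 0.259%, and Mir19b-1 0.0422% and 0.0396%. Mir17 and Mir20a, the pair with the miR-17 seed, thus held most of the counted output of the locus in each pup. The whole cluster had 49804 and 55505 counts, or 2.02% (exact interval 2.01% to 2.04%) and 1.84% (1.83% to 1.86%) of all gene counts, with a mean of 1.93% ± 0.129. Without Mir17 the other 5 members held 0.857% and 0.866%. Among these, Mir20a went from 0.504% to 0.470% of all gene counts and Mir92-1 from 0.0987% to 0.0960%, while Mir18 went from 0.251% to 0.295%.

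The pups were compared gene by gene with an exact binomial test of the 2 counts, given TMM-scaled totals, with Benjamini-Hochberg adjustment over the 395 genes in which at least 1 library reached 10 counts. With no replicate on either side, the test compares these libraries beyond counting error only, and 46.8% of all genes tested passed it (25.6% higher and 21.3% lower in pup 3). The balance of directions depends on the scaling, with 101 genes higher and 84 lower here, and 76 higher and 105 lower with TMM factors from genes with at least 10 counts, an alternative chosen after seeing the data. Of the 6 members 5 passed, 2 higher and 3 lower in pup 3, and at counts this high small differences pass. As a measure of the spread between pups, the common biological coefficient of variation (edgeR) was 16.5% over 361 genes, and log2 folds of that spread have an SD of 0.33. This SD leaves out counting error. That spread was estimated from these same 2 libraries, so a test that uses it has little room to call a difference between them, and a gene it does not call is not shown to be alike in both pups. With that spread in the test (edgeR's negative binomial exact test), 0.506% of the genes passed, 2 in number, and none of the members. At an unadjusted p under 0.05 that exact test gave 23 genes and again no member, and Mir19a came nearest with an unadjusted p of 0.0857.

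Mir17 was lower in pup 3, with a log2 fold of -0.31 (counting interval -0.33 to -0.29, adjusted p = 2.56e-147 by the exact binomial test). Mir20a was lower by less (-0.15, interval -0.19 to -0.12). Mir18 was higher in pup 3 (0.18, interval 0.13 to 0.23, adjusted p = 1.71e-13 by the same exact test), although it is cut from the same transcript. These folds were all within 1 SD of folds between pups (0.33), although with TMM factors from genes with at least 10 counts that of Mir17 was -0.39. For Mir92-1 the log2 fold was -0.094 (interval -0.17 to -0.02, adjusted p = 0.0403, same exact test), and it did not pass with plain library totals (-0.041).

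Mir19a had the largest difference of the members, a log2 fold of 0.69 (interval 0.27 to 1.13, adjusted p = 0.00234 by the exact binomial test). This fold was 2.06 times the SD between pups, which leaves out counting error, and Mir19a had only 70 and 144 counts. It was the only member beyond 1 SD with the factors from all rows, where 136 of the 395 genes tested lay, some of them at low counts. For Mir19b-1 the log2 fold was -0.28, with an interval from -1.21 to 0.66, and it did not pass. The median log2 fold of the members was -0.12, beside 0.02 over all genes tested. Summed without Mir17, the other 5 members had a log2 fold of -0.037 (interval -0.064 to -0.011). Without TMM scaling, their share of all gene counts was 0.857% in pup 1 and 0.866% in pup 3. The direction of this small difference thus depends on the scaling.

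**Figure D2:**
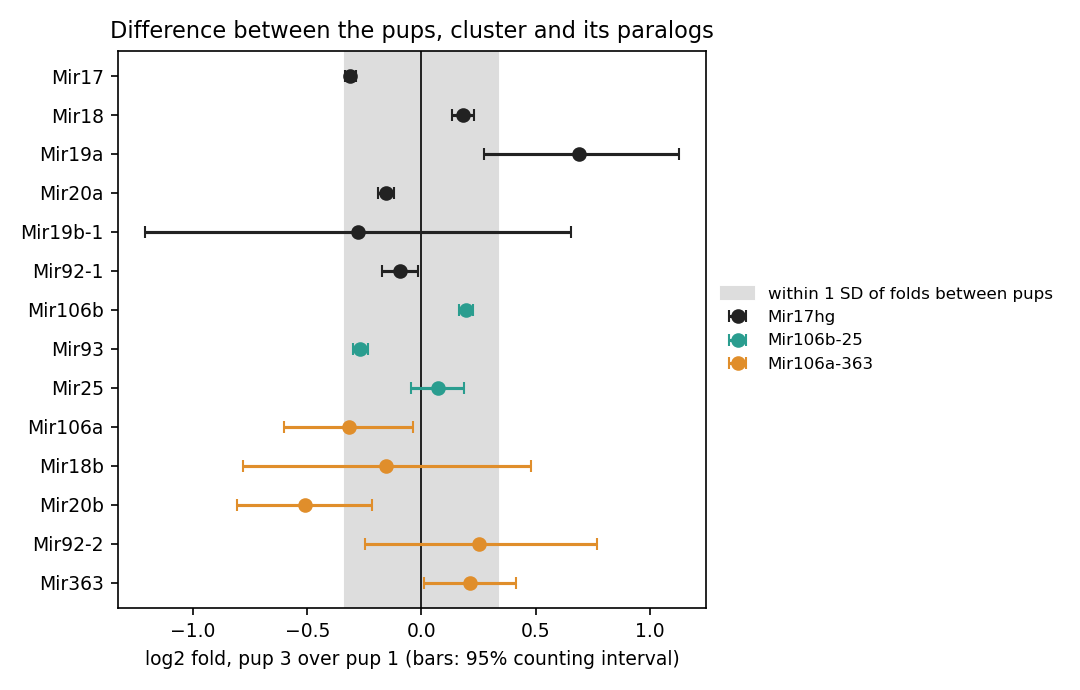
The log2 fold of pup 3 over pup 1 for the 6 members (black) and the measured genes of the paralog clusters (green and orange), with 95% counting intervals. The grey band covers 1 SD (0.33, without counting error) of folds between pups on either side of 0. Mir17 at -0.31 and Mir18 at 0.18 have narrow intervals on opposite sides of 0, and Mir19a at 0.69 lies outside the band.

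The ratios also show how evenly the members of the transcript differed between the pups. Of the 15 pairs of members, 10 had a ratio that differed between the pups by more than its 95% counting interval (normal approximation on the log scale), and in no pair did the order change. The ratio of Mir17 to Mir18 fell by 0.49 on the log2 scale from pup 1 to pup 3 (interval -0.54 to -0.44), and that of Mir17 to Mir19a fell by 1.01 (interval -1.42 to -0.59). The spread between pups corresponds to an SD of 0.47 for such a change, and 6 of the 15 pairs lay beyond it, of which 5 include Mir19a. That SD leaves out counting error and takes the genes of a pair as independent. At low counts, as for Mir19a and Mir19b-1, a change beyond it can thus include counting error. The 15 pairs reuse the same 6 genes, and such shares were not computed for pairs of other genes. Over single genes, 46.8% passed the exact binomial test and 136 of 395 had a fold beyond 1 SD. These pair counts are therefore not a trait shown to be particular to the cluster. The ratio of Mir20a to Mir92-1 moved by -0.06 (interval -0.15 to 0.03). No replicate of either pup was measured, so a difference between animals, one in the tissue taken and one between library preparations cannot be told apart. Of the neuronal and hindbrain markers given above, Mir10a and Mir10b were lower in pup 3, while others, such as Mir137 and Mir128-1, were higher. These marker differences go beside all differences of the members, and their part in them was not tested.

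Guides with a seed of the cluster are also made at other loci, which places the members among the microRNAs that could act on the same targets. The other guides with the miR-17 seed that had counts and the most abundant other guides with the seed of Mir92-1 are shown, again with the seed in capitals.
Mir106b, miR-106b-5p: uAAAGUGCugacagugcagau
Mir93, miR-93-5p: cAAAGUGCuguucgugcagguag
Mir106a, miR-106a-5p: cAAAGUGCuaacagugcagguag
Mir20b, miR-20b-5p: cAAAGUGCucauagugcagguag
Mir92b, miR-92b-3p: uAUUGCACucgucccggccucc
Mir25, miR-25-3p: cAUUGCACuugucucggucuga
Against miR-17-5p, miR-106a-5p differs by U10A alone, miR-20b-5p by U10C and C12U, and miR-93-5p by U10G, A11U, C12U and A13C. Over the 21 bases of the shorter guide, miR-106b-5p differs from miR-17-5p by C1U, U10G and G20A.

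Of 7 genes with the miR-17 seed, Mir17 and Mir20a supplied 58.7% of the pup 1 counts (exact interval 58.3% to 59.1%). In pup 3 they supplied 54.7% (54.4% to 55.0%). The group summed to 28481 and 26445 CPM. Most of the rest came from the Mir106b-25 cluster, in which Mir106b had 5683 and 6753 CPM and Mir93 had 5912 and 5096 CPM. The X-linked copies were far lower, with Mir106a at 85.0 and 70.7 CPM and Mir20b at 82.9 and 60.4 CPM, and Mir6383 had no count. Mir20a, at 4868 ± 239 CPM, did not overlap Mir106b, and its range lay just below that of Mir93.

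The miR-18 seed came almost wholly from the cluster: Mir18 held 99.3% and 99.5% of its counts, and X-linked Mir18b had 42 and 48 counts. In the miR-19 seed group Mir19a and Mir19b-1 held 95.8% (exact interval 89.6% to 98.8%) and 96.5% (92.6% to 98.7%) of only 95 and 172 counts, and Mir19b-2 had 4 and 6. This share leaves out the reads of miR-19b-3p that map to both of its loci, by the layout also those of the exact guide. In the AUUGCAC group of 7 genes, Mir92-1 held 21.5% and 20.9%. There Mir92b, on chromosome 3, led with 2838 and 2661 CPM, Mir25 had 440.3 and 479.7 CPM, and Mir92-2 had 22.8 and 28.2 CPM. Mir367 had no count. By the layout, reads of the exact miR-92a-3p guide map to both of its loci and are not counted. The share of Mir92-1 thus rests on other reads of its hairpin. Its part in this group can be an underestimate.

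**Figure D3:**
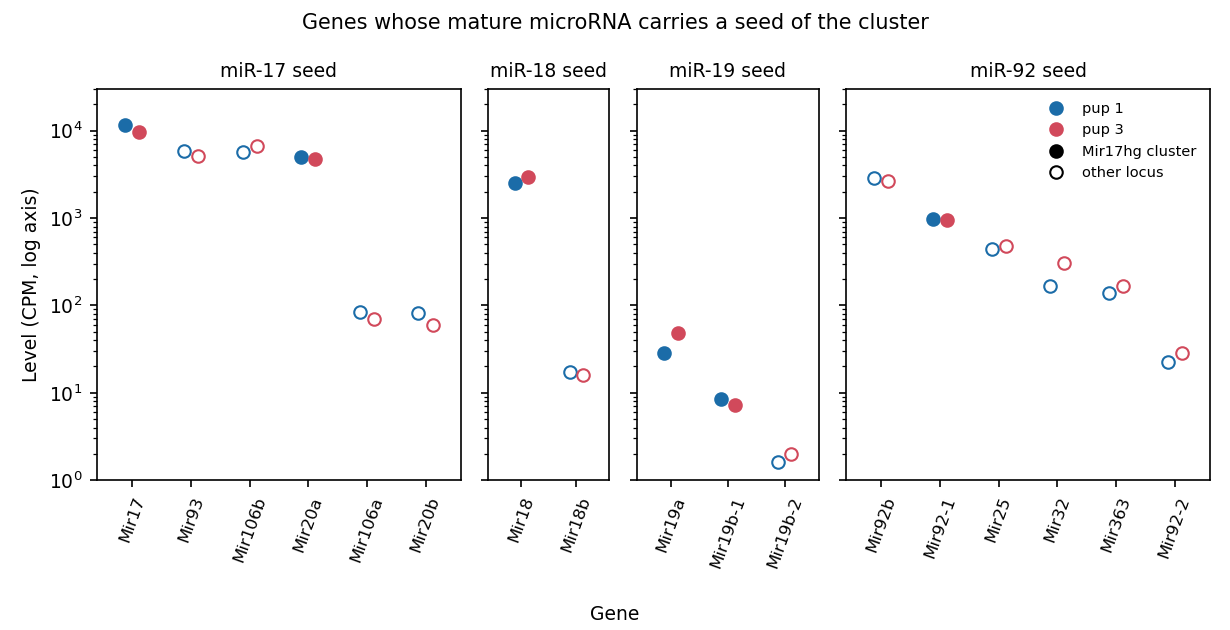
Level in CPM on a log axis of the genes whose mature microRNA carries 1 of the 4 seeds of the cluster, in pup 1 (blue) and pup 3 (red), with members filled and genes of other loci open; genes without counts are left out. Mir17 leads the miR-17 group, Mir18 stands far above Mir18b, no miR-19 gene exceeds 47.8 CPM, and Mir92b exceeds Mir92-1.

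The paralog clusters held the same seeds at other levels. Mir106b-25, on chromosome 5, held 1.20% and 1.23% of counts against 2.02% and 1.84% for the Mir17hg cluster, and Mir106a-363 held 0.0350% and 0.0346%. In Mir106b-25, too, members of 1 locus differed in opposite directions, Mir106b by a log2 fold of 0.20 (0.16 to 0.23) and Mir93 by -0.27 (-0.30 to -0.23). Within that cluster Mir25, whose guide is the 3′ arm, was the lowest, whereas in Mir106a-363 Mir363, also with a 3′ guide, was the highest, at 140.3 and 169 CPM.

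The spread among the 6 members was set beside that in the other groups of neighbouring microRNA genes, which were defined as at least 3 genes that passed the same minimum of counts, each within 10 kb of the next on 1 strand. From Mir17 to Mir19b-1 the levels spanned 10.40 on the log2 scale, the 5th widest of 16 groups, where the other 15 ranged from 1.33 to 12.20 with a median of 4.88. The lower end is Mir19b-1, whose value can be an undercount. Groups differ in their number of genes, from 3 to 31, and a range grows with it. By the SD of the log2 levels, the 6 members had 4.16, the 2nd highest of the 16 groups, beside a median of 2.80 in the others. Among them, Mir450b to Mir322 spanned 11.12 and Mir449c to Mir449a 10.59, while Mir25 to Mir106b spanned 3.76. The folds between pups spanned 1.00 on the log2 scale in the Mir17hg cluster, beside a median of 0.95 in the others (0.12 to 1.39). Wide levels and unequal folds within a locus were thus present in other groups as well.

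**Figure D4:**
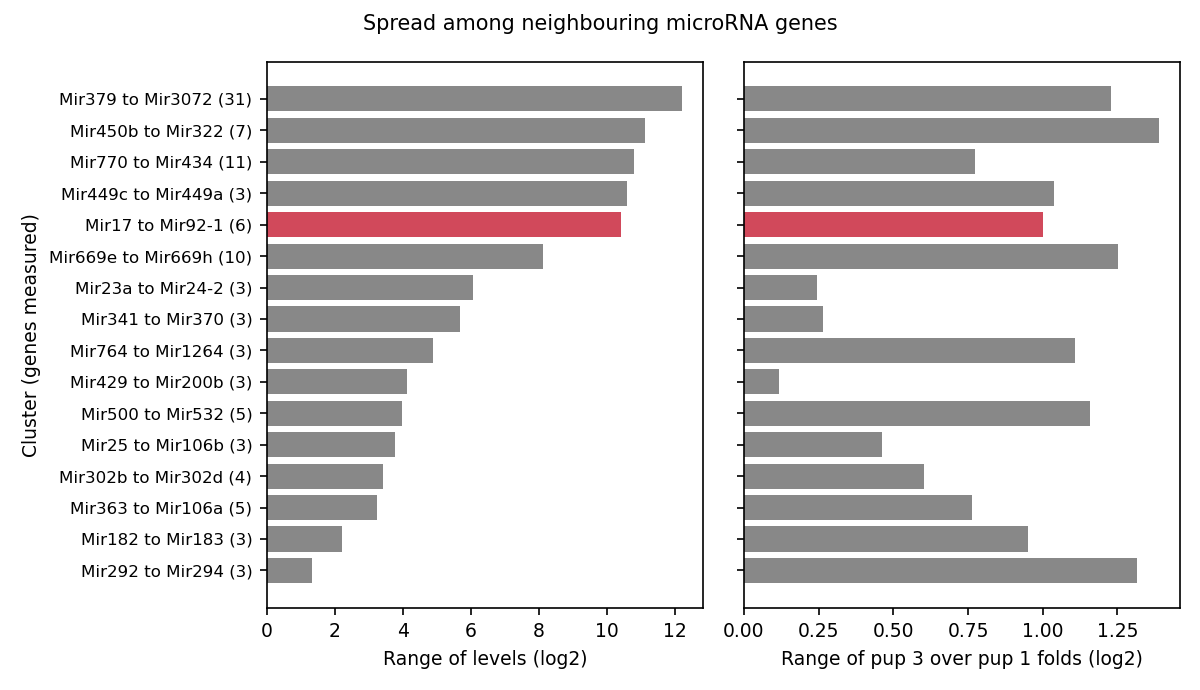
Range of levels (left) and range of pup 3 over pup 1 folds (right), both on the log2 scale, for 16 groups of neighbouring microRNA genes, with the number of genes measured in parentheses; Mir17 to Mir92-1 is red. Its bar of levels reaches 10.40, the 5th longest, and its bar of folds reaches 1.00, the 8th longest.

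Genes nearest in level give a further scale. By mean CPM, Mir17 stood between Mir22 (10760.0 ± 1291 CPM) and Mir382 (10017 ± 1236 CPM), Mir20a between Mir381 (5025 ± 532 CPM) and Mir151 (4866 ± 670 CPM), and Mir18 between Mir92b and Mir770 (2634 ± 41.2 CPM). Mir92-1 stood between Mir676 (988 ± 67.2 CPM) and Mir448 (942 ± 37.1 CPM). Mir19a stood between Mir26a-2 (38.7 ± 1.20 CPM) and Mir1188 (37.2 ± 1.41 CPM), and Mir19b-1 between Mir5113 (8.25 ± 0.403 CPM) and Mir3070a (7.86 ± 2.50 CPM). The range of each of these neighbours over the pups overlapped that of its member. For the cluster's summed counts the log2 fold was -0.19 (-0.21 to -0.17), and of 222 other genes with at least 100 CPM in both pups, the nearest to it were Mirlet7a-1, Mir125a and Mir34c, each at -0.19. With 2 libraries this likeness rests on 1 fold per gene.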

How the data were processed

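MicroRNA-seq of 2 hindbrains was analysed from 1 table per library. The authors deposited raw read counts per microRNA gene, aligned to mm10 with GENCODE M4, per the listings deposited beside the tables; for the aligner and the trimming, none was given in the sources used here. The tables have 3 unnamed columns, taken from their layout as counts on either strand, the same strand and the opposite strand, and 4 rows that name no gene, which were left out of totals. Unmapped reads were 13.7% and 12.4%, multimapped reads 40.2% and 42.0%, and reads outside genes 3.79% and 3.63% of all reads in pups 1 and 3 (the last from the same-strand column). Same-strand counts were used. Of 1973 rows 1894 matched GENCODE M21 by identifier. A chi-square test over 395 genes (49286, with 394 degrees of freedom) showed more than sampling noise between the libraries, which were counted as 2 samples.

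Folds divide pup 3 by pup 1, after adding 0.5 counts to each, with TMM factors computed on all rows (edgeR 4.0.16, R 4.3.3), and calls are at an adjusted p of 0.05 (scipy 1.17.1). TMM moved every log2 fold by -0.05 relative to plain totals. With 1 library per pup the quasi-likelihood test could not be run. DESeq2 1.42.0 gave alternative size factors. Scripts were tested on simulated data. Intervals are 95% and, as reads carry no molecular identifiers, cover counting error only. Named genes are the members, their paralogs, carriers of the same seeds, and the nearest genes by level and fold. The members and lists were chosen with earlier results of these data known.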

Additional observations from a re-analysis of the deposited data

Results flagged for a closer look

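Reads that map to several loci are in none of the comparisons and made up 41.1% ± 1.29 (SD, n = 2) of all reads, above the 3 counts that a count of 0 allows. Among the members they bear on Mir19b-1 and Mir92-1, whose guides are each encoded at 2 loci. By the layout, such reads are also missing from the counts of other genes and from the total behind CPM. The ranks of the members and the cluster share thus hold among counted reads only. How many of the reads that map to several loci belong to miR-19b-3p or miR-92a-3p was not tested.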

How the results depend on the processing

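The order of the 6 members was Mir17, Mir20a, Mir18, Mir92-1, Mir19a and Mir19b-1 under every alternative for level. With all reads as denominator the levels were 4521, 2052, 1148, 410.3, 16.1 and 3.34 CPM in that order, and the cluster share was 0.815%. In counts per nucleotide of precursor, scaled to sum to 1000000, Mir18 came to 2239 and Mir20a to 3586, and the log2 ratio of Mir17 was 1.48 to Mir20a and 10.45 to Mir19b-1. With the either-strand column Mir92-1 had 945 CPM. With the negative binomial exact test of edgeR, 2 genes were called, and no member: Mir17 (log2 fold -0.31), Mir18 (0.18), Mir19a (0.69), Mir20a (-0.15) and Mir92-1 (-0.094) had adjusted p-values from 0.896 to 1. Mir92-1 also lost its call with DESeq2 size factors (-0.075), plain totals (-0.041) and no filter beyond 1 count (-0.094, adjusted p = 0.071, exact binomial test). Mir19a and Mir19b-1 have no value at a minimum of 100 counts in both libraries. The coefficient of variation was 15.7% at that minimum, 16.6% without the members and 17.0% with TMM factors from genes with at least 10 counts, an alternative chosen after seeing the data. Leaving out a pup leaves the value of the other, given for each member above, so this cannot test stability. No paired analysis was possible because there is 1 group. The other 68 values from both pups stayed within the spread between pups, kept their call or, for the count of genes called, stayed within 1.5 times.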
